A study of Mus musculus with 6 samples.

Results

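Antioxidant, glutathione and metallothionein genes were examined in pancreatic islets of mice whose beta cells lack Neurod1, a transcription factor of hormone-secreting cells with a basic helix-loop-helix domain. The members were all genes whose symbol names a superoxide dismutase, catalase, glutathione peroxidase, peroxiredoxin, sulfiredoxin, thioredoxin, thioredoxin reductase, glutaredoxin, soluble glutathione transferase, enzyme of glutathione synthesis or reduction, heme oxygenase, NAD(P)H or NRH quinone reductase or metallothionein. Of 23284 genes in the count tables, 63 met this rule, which uses no measured value. The knockout group carried Neurod1-floxed/floxed alleles with Rip-Cre+, a Cre recombinase under the rat insulin promoter (libraries 4, 5 and 6). The control group carried the same floxed alleles and no Cre (libraries 7, 10 and 16). All mice were 12 weeks old, of the strain that the labels write as C56BL/J. Without a Cre control, effects of the transgene and of the deletion cannot be told apart. The islets also hold alpha, delta and other cells that the insulin promoter does not target, and the labels do not say whether a library is 1 animal or a pool, so the p-values rest on the scatter among libraries, which may be technical.

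Cells remove superoxide by dismutases, which make hydrogen peroxide, and remove the peroxide by catalase, glutathione peroxidases and peroxiredoxins. Glutathione peroxidases draw electrons from glutathione, and peroxiredoxins draw them from thioredoxin, so both lines end in NADPH through glutathione reductase and thioredoxin reductase. Glutathione transferases couple glutathione to reactive compounds, and metallothioneins are small cysteine-rich proteins that bind zinc and copper. Rodent beta cells are known for low catalase and low glutathione peroxidase activity. Many of these genes are known targets of the transcription factor Nrf2 at antioxidant response elements, and the metallothionein genes Mt1 and Mt2 of the zinc sensor Mtf1 at metal response elements.

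Total counts were 12206393 to 16473159 in the knockout libraries and 14424767 to 20412435 in the control libraries. Neurod1 was at 28.4, 29.8 and 31.3 counts per 1e+06 counts (CPM) in knockout libraries 4, 5 and 6, against 198, 177 and 141 CPM in control libraries 7, 10 and 16, so the groups were far apart, as their labels say (log2 fold change -2.53, SE 0.13). Beta cell markers of the islet (6 genes, insulin genes among them) summed to 131000 to 148000 CPM in knockout and 174000 to 192000 CPM in control libraries. Of these 6 markers 1 rose and 3 fell. The sums differ mainly by Ins1, at 4310 ± 1530 CPM in knockout and 48700 ± 3300 CPM in control islets (SD, n = 3 each), while Ins2 was at 113000 ± 7420 CPM in knockout and 111000 ± 5360 CPM in control islets and did not pass (adjusted p = 0.873 by edgeR). Markers of some other cell types moved with genotype as well. The share of all counts on the 23 acinar markers was 0.53%, 1.55% and 1.16% in knockout libraries 4, 5 and 6, against 5.28%, 4.49% and 1.51% in control libraries 7, 10 and 16; 22 of the 23 had a negative log2 fold change and 2 passed the test. All 8 endothelial markers fell (568 to 661 CPM summed in knockout, 897 to 901 CPM in control). Of 6 stromal markers 2 fell (424 to 571 CPM summed in knockout, 605 to 884 CPM in control), and of 5 alpha cell markers 1 fell (26100 to 34800 CPM in knockout, 37000 to 50100 CPM in control); all of these 11 had a negative log2 fold change. Of 6 duct markers 3 fell (290 to 317 CPM in knockout, 312 to 367 CPM in control). Delta cell and leukocyte markers did not move as a set. Of 3 delta cell markers 1 rose and 1 fell (3580 to 5000 CPM in knockout, 4080 to 6490 CPM in control). Of 8 leukocyte markers 1 fell, and 4 had a negative log2 fold change (104 to 317 CPM in knockout, 88.6 to 177 CPM in control). No marker of these lists was at 0 in all libraries. In bulk samples fewer cells of a type and less RNA per cell cannot be told apart, and the part of these cell types in the results was not tested except where a value is given.

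The antioxidant genes moved in both directions. Of the 63 members, 9 were below the filter on low counts (Gpx2-ps1, Gpx5, Gpx6, Gsta1, Gsta2, Gstm3, Gstm6, Gstp2 and Mt4) and 54 were tested. Of these, 11 rose, 8 fell and 35 did not pass at an adjusted p under 0.05 (edgeR's quasi-likelihood test, Benjamini-Hochberg adjustment over 14770 genes). In all, 24.4% of the genes tested passed, 11.8% higher and 12.6% lower. Among the members 35.2% passed, 20.4% higher and 14.8% lower. The median log2 fold change was 0.017 over the members and -0.0075 over all genes tested. Among the called members 4 changed at least 2-fold (Hmox1, Gsta3, Gpx2 and Mt3). These are 4 of the 54 tested members, where 850 of all 14770 genes tested (5.75%) were called with such a change. In all 19 called members the knockout libraries lay beyond all control libraries; this was so for 27 of the 54 tested members, and for 42% of all genes tested. The members made up 0.284% to 0.296% of a knockout library and 0.258% to 0.286% of a control library. DESeq2 called 20 members, and 23.1% of all genes it tested. Leaving out knockout library 4, 5 or 6 or control library 7, 10 or 16 gave 8, 10, 12, 8, 9 and 10 members higher, where 10.1%, 8.38%, 10.6%, 8.84%, 7.75% and 9.29% of all genes were higher. In the same order 6, 7, 5, 6, 6 and 5 members were lower, where 8.92%, 9.43%, 9.17%, 9.07%, 8.24% and 9.55% of all genes were lower. Calls of members that depend on a library are given with each gene.

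**Figure D1:**
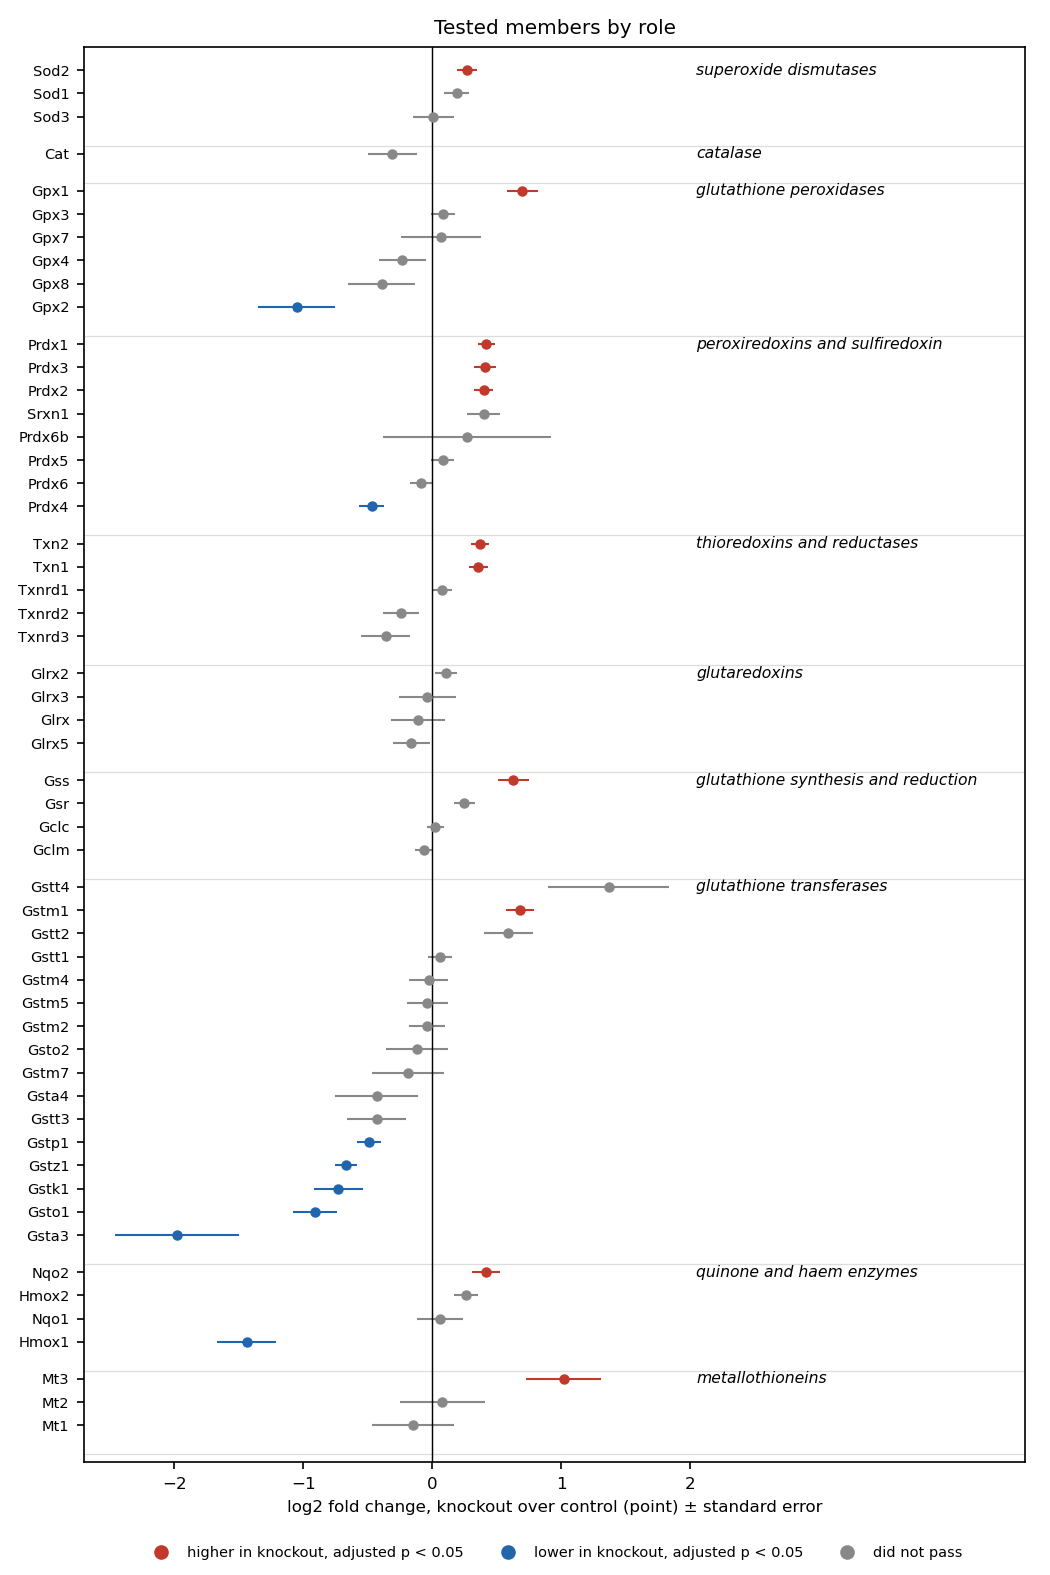
Log2 fold change of knockout over control islets (points, with the standard error as bars) for the 54 tested members, grouped by role, with members that passed the test in red (11 higher) or blue (8 lower). The called peroxiredoxins and thioredoxins of cytosol and mitochondria lie close together at 0.36 to 0.42, while transferases spread from -1.98 to 1.37.

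On a scale of CPM per kilobase of transcript (median length of the coding transcripts in GENCODE M21), the most abundant member in both groups was Gpx3, at 910 ± 48.3 in knockout and 859 ± 78.1 in control islets (SD, n = 3 each). Mt1 (253 ± 107 in knockout and 280 ± 23.6 in control), Mt2 (275 ± 124 and 260 ± 2.22 in the same groups), Prdx1 (217 ± 7.61 in knockout and 162 ± 9.24 in control) and Sod1 (159 ± 7.28 in knockout and 140 ± 18.1 in control) followed in control islets. The means of Mt1 and Mt2 lay close to each other in each group. Both genes come from the same libraries, so these SDs do not measure the spread of their difference, which was not tested. Catalase was at 10.3 ± 2.33 in knockout and 12.8 ± 2.24 in control islets on the same scale. In control islets the 11 genes that rose had a median level of 42.5 CPM per kilobase (2.21 to 162), the 8 that fell had 7.64 (3.34 to 106), and the 35 that did not pass had 13.2 (0.278 to 859).

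Among the 3 superoxide dismutases, Sod2, the manganese enzyme of the mitochondrial matrix, rose, and Sod1 and Sod3 did not pass. This class had 33.3% called, against 24.4% of all genes tested. Sod2 was at 94.7, 96.1 and 81.4 CPM in knockout libraries 4, 5 and 6, against 76.2, 76.7 and 72.4 CPM in control libraries 7, 10 and 16. The knockout values all lay above the control values, with library 6 nearest to them (log2 fold change 0.27, SE 0.08, adjusted p = 0.0338 by edgeR). This call missed the threshold without any 1 library except knockout library 6 (0.23 to 0.29, adjusted p 0.0754 to 0.106). Sod1, the copper-zinc enzyme of the cytosol, was at 107, 99.9 and 98.2 CPM in knockout and 83.4, 82.5 and 103 CPM in control libraries, where control library 16 overlapped the knockout values (0.19, SE 0.09, adjusted p = 0.184); without it Sod1 was at 0.29 (adjusted p = 0.0277). Cat, which encodes catalase, was at 17.2, 13.7 and 21.6 CPM in knockout and 21.7, 25.4 and 17.8 CPM in control libraries (-0.31, SE 0.19, adjusted p = 0.263), and its groups overlapped.

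Glutathione peroxidases split: of 6 tested, Gpx1 rose, Gpx2 fell and 4 did not pass, which is 33.3% called, against 24.4% of all genes tested. Gpx1, the widespread enzyme of cytosol and mitochondria, was at 75.2, 88.3 and 102 CPM in knockout libraries 4, 5 and 6, against 50.7, 52.5 and 60.2 CPM in control libraries 7, 10 and 16. This 1.62-fold difference had a log2 fold change of 0.70 (SE 0.12, adjusted p = 0.00413 by edgeR), and no knockout library reached down to the control range. Gpx2, the enzyme of gut epithelium, had only 25, 40 and 19 counts in knockout and 74, 66 and 72 counts in control libraries. It was 2.07-fold lower in knockout islets (-1.05, SE 0.30, adjusted p = 0.0342), and it missed the threshold without any 1 library except knockout library 5 (-0.88 to -1.19, adjusted p 0.0521 to 0.108). Gpx3, the secreted peroxidase, was at 771, 784 and 709 CPM in knockout and 719, 644 and 773 CPM in control libraries, with overlapping groups (0.08, SE 0.10, adjusted p = 0.558). Gpx4, which reduces lipid peroxides in membranes, was at 9.52, 6.7 and 8.92 CPM in knockout and 9.66, 8.29 and 11.6 CPM in control libraries (-0.23, SE 0.18, adjusted p = 0.397). Of the 100-base windows of Gpx4 transcripts 40.8% also occur in its copy Gpx4-ps2, so its level is uncertain. For Gpx2 the share with Gpx2-ps1 was 5.17%.

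Among the peroxiredoxins Prdx1, Prdx2 and Prdx3 rose by about the same amount, and Prdx4, of the endoplasmic reticulum, fell. Of 8 genes in this class, sulfiredoxin included, these 4 passed and Prdx5, Prdx6, Prdx6b and Srxn1 did not. That is 37.5% higher and 12.5% lower, against 11.8% higher and 12.6% lower among all genes tested. Prdx1, a cytosolic peroxiredoxin, was at 139, 149 and 143 CPM in knockout libraries 4, 5 and 6, against 102, 106 and 114 CPM in control libraries 7, 10 and 16. Prdx2, also cytosolic, was at 120, 120 and 113 CPM in knockout and 82.9, 90 and 96.2 CPM in control libraries. Of the 100-base windows of Prdx2, 9.23% also occur in transcripts of other genes (3.68% in Junb). Prdx3, the mitochondrial one, was at 51, 61 and 58 CPM in knockout and 41.2, 41.5 and 45.4 CPM in control libraries. In none of the 3 genes did the groups overlap, with log2 fold changes of 0.42 (SE 0.07, adjusted p = 0.00287), 0.40 (SE 0.07, adjusted p = 0.00532) and 0.41 (SE 0.08, adjusted p = 0.00925 by edgeR).

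Prdx4, which uses peroxide in the endoplasmic reticulum to form disulfides, was at 19.3, 23 and 19.2 CPM in knockout libraries 4, 5 and 6, against 29.9, 27.8 and 27.3 CPM in control libraries 7, 10 and 16. All knockout values were below all control values (log2 fold change -0.47, SE 0.10, adjusted p = 0.011 by edgeR). Prdx5, a peroxiredoxin of mitochondria, peroxisomes and cytosol, was at 49.9, 53.7 and 43.6 CPM in knockout and 44.2, 46.2 and 49.1 CPM in control libraries, which overlapped (0.08, SE 0.09, adjusted p = 0.548); 20.1% of its windows also occur in Trmt112 transcripts. Prdx6, which also has phospholipase activity, was at 179, 156 and 153 CPM in knockout and 168, 165 and 187 CPM in control libraries, which overlapped (-0.09, SE 0.09, adjusted p = 0.494). Srxn1, the sulfiredoxin that restores overoxidised peroxiredoxins, was at 95.1, 98.2 and 70.5 CPM in knockout and 69.1, 61.4 and 70.1 CPM in control libraries. It stayed just short of the threshold (0.40, SE 0.13, adjusted p = 0.0527), and knockout library 6, the lowest of its group, lay next to the controls. Without that library it was at 0.55 (adjusted p = 0.00468), and DESeq2 called it with all libraries (0.42, adjusted p = 0.0155).

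Thioredoxins, which reduce the peroxiredoxins, rose with them, and their reductases did not pass. Txn1, the cytosolic thioredoxin, was at 54, 55.5 and 61.9 CPM in knockout libraries 4, 5 and 6, against 44.5, 42.6 and 46.8 CPM in control libraries 7, 10 and 16. Txn2, the mitochondrial thioredoxin, was at 66.3, 60.7 and 60.8 CPM in knockout and 47.1, 47.4 and 50.8 CPM in control libraries. For both genes each knockout library exceeded each control library, with log2 fold changes of 0.36 (SE 0.08, adjusted p = 0.0109 by edgeR) and 0.37 (SE 0.07, adjusted p = 0.00585). Txnrd1, the cytosolic reductase, was at 140, 147 and 124 CPM in knockout and 123, 135 and 132 CPM in control libraries (0.08, SE 0.08, adjusted p = 0.525), and the other two reductases did not pass either. Summed over the 5 genes of the class, the level was 271 ± 7.94 CPM in knockout and 240 ± 9.5 CPM in control islets (SD, n = 3 each). Of 7 tested thioredoxin partners outside the symbol rule, 3 rose and none fell, which is 42.9% called, against 24.4% of all genes tested. Txnip, which binds thioredoxin, rose 2.88-fold (log2 fold change 1.53, SE 0.29, adjusted p = 0.0137 by edgeR). It was at 1230, 1300 and 641 CPM in knockout and 316, 352 and 434 CPM in control libraries. None of the 4 glutaredoxins, which reduce disulfides with glutathione, passed (log2 fold changes -0.16 to 0.11). The most abundant of them by count, Glrx5, of mitochondrial iron-sulfur cluster assembly, was at 25.8, 30.7 and 24.7 CPM in knockout and 26.4, 28.2 and 36.1 CPM in control libraries (-0.16, SE 0.14, adjusted p = 0.438).

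**Figure D2:**
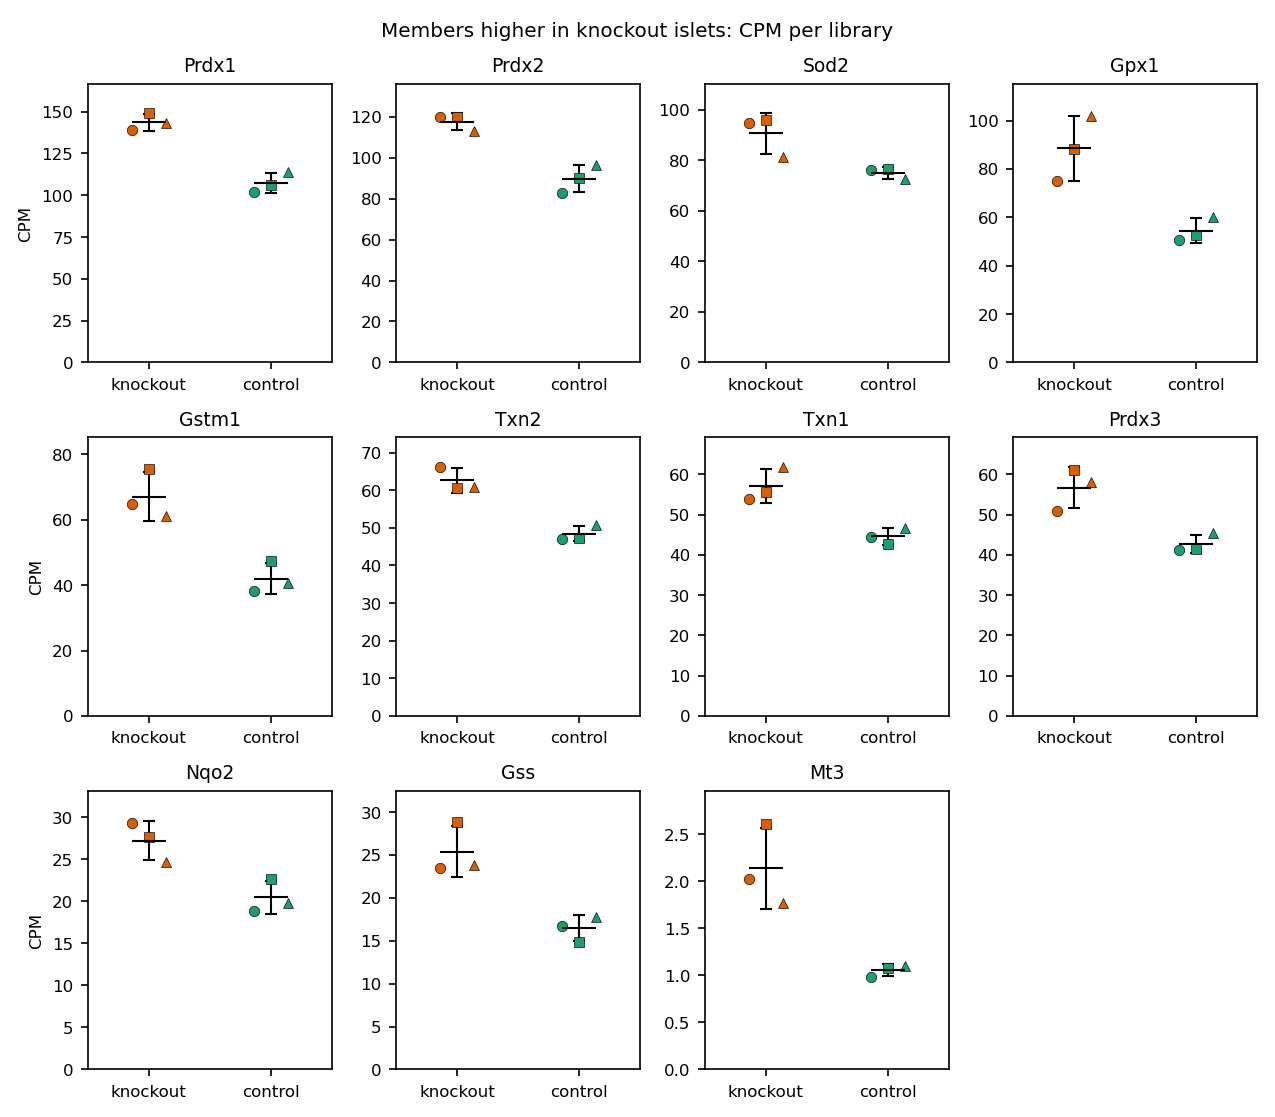
CPM (counts per 1e+06 counts, y axis from 0) of the 11 members that rose, in the 3 knockout and the 3 control libraries (points, in the order 4, 5, 6 and 7, 10, 16; the shapes pair nothing), with the mean as a dash and the SD as a bar. In each panel all knockout points lie above all control points, from Prdx1 at 139 to 149 against 102 to 114 CPM down to Mt3 at 1.77 to 2.61 against 0.981 to 1.1 CPM.

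In the synthesis of glutathione the second step rose and the first did not pass. Gss, the glutathione synthetase that adds glycine, was at 23.5, 28.8 and 23.8 CPM in knockout libraries 4, 5 and 6, against 16.7, 14.8 and 17.8 CPM in control libraries 7, 10 and 16. That is a 1.54-fold difference with no overlap of the groups (log2 fold change 0.63, SE 0.12, adjusted p = 0.00589 by edgeR); 8.3% of its 100-base windows also occur in transcripts of other genes, mostly Gssos1. Neither subunit of the rate-limiting ligase passed. Gclc, the catalytic subunit, averaged 45.9 ± 1.8 CPM in knockout and 45.1 ± 1.02 CPM in control islets (SD, n = 3 each; 0.03, SE 0.07, adjusted p = 0.81). Gclm, its modifier subunit, averaged 44.3 ± 1.98 CPM in knockout and 46.2 ± 1.81 CPM in control islets (-0.06, SE 0.07, adjusted p = 0.567). Gsr, which regenerates reduced glutathione, was at 47.8, 53 and 50.2 CPM in knockout and 38.3, 43.3 and 45.2 CPM in control libraries. Its groups did not overlap, and it missed the threshold by little (0.25, SE 0.08, adjusted p = 0.0562), passing without control library 16 (0.30, adjusted p = 0.0494).

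Glutathione transferases were the largest class and held the most falls. Of 16 tested, Gstz1, Gstp1, Gsto1, Gstk1 and Gsta3 fell, Gstm1 rose and 10 did not pass. That is 31.2% lower and 6.25% higher, against 12.6% lower and 11.8% higher among all genes tested. The summed level of the 16 was 281 ± 8.02 CPM in knockout and 315 ± 18.9 CPM in control islets (SD, n = 3 each). Gstz1, the zeta transferase that isomerises maleylacetoacetate in tyrosine breakdown, was at 83.7, 87 and 84.1 CPM in knockout libraries 4, 5 and 6, against 138, 119 and 148 CPM in control libraries 7, 10 and 16. Its knockout libraries lay within a narrow band far below the controls (log2 fold change -0.67, SE 0.08, adjusted p = 9.05e-04 by edgeR), and 12.5% of its windows also occur in its neighbour Pomt2. Gstp1, the pi transferase, was at 15.7, 15.3 and 15.8 CPM in knockout and 20.1, 23.1 and 22.4 CPM in control libraries (-0.49, SE 0.09, adjusted p = 0.00668). It shares 38.4% of its windows with its near copy Gstp2, which had 0, 0 and 2 counts in knockout and 6, 13 and 2 counts in control libraries, so the split of reads between the 2 genes is uncertain.

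Gsto1, the omega transferase that reduces dehydroascorbate, was at 3.81, 3.62 and 3.13 CPM in knockout libraries 4, 5 and 6, against 6.66, 6.23 and 7 CPM in control libraries 7, 10 and 16, a 1.88-fold fall without overlap (log2 fold change -0.91, SE 0.17, adjusted p = 0.00645 by edgeR). Gstk1, the kappa transferase of mitochondria and peroxisomes, was at 3.99, 4.22 and 3.13 CPM in knockout and 6.2, 5.79 and 7 CPM in control libraries. Its groups were apart too (-0.73, SE 0.19, adjusted p = 0.0229), but it missed the threshold without any 1 library except knockout library 5 (-0.61 to -0.80, adjusted p 0.051 to 0.0738). Gsta3, an alpha transferase, had the largest fall of the members on few reads: 16, 12 and 5 counts in knockout, against 34, 49 and 70 counts in control libraries. Control library 16 was the highest and knockout library 6 the lowest (-1.98, SE 0.48, adjusted p = 0.0172), and the call was lost when knockout library 5, knockout library 6 or control library 16 was left out (-1.48 to -2.03, adjusted p 0.0505 to 0.0544).

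Gstm1, a mu transferase, went the other way, with 64.7, 75.5 and 61.1 CPM in knockout libraries 4, 5 and 6, against 38.1, 47.3 and 40.6 CPM in control libraries 7, 10 and 16. The groups did not overlap (1.6-fold, log2 fold change 0.68, SE 0.11, adjusted p = 0.00287 by edgeR). For Gstm1 6.17% of the windows also occur in transcripts of other genes (2.75% in Gstm2-ps1). None of the other 4 mu transferases tested passed (log2 fold changes -0.19 to -0.03). Among the theta transferases, Gstt2 was at 14.9, 13.3 and 21.1 CPM in knockout and 11.8, 9.12 and 11.9 CPM in control libraries, higher in each knockout library but short of the threshold (0.59, SE 0.19, adjusted p = 0.0545); DESeq2 called it (0.60, adjusted p = 0.0239), as did the fit without knockout library 5 (0.72, adjusted p = 0.0353). Gstt4 had 42, 15 and 17 counts in knockout and 9, 11 and 14 counts in control libraries (1.37, SE 0.47, adjusted p = 0.0642), with knockout library 4 apart from the rest; it passed without knockout library 5 (1.63, adjusted p = 0.0465).

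**Figure D3:**
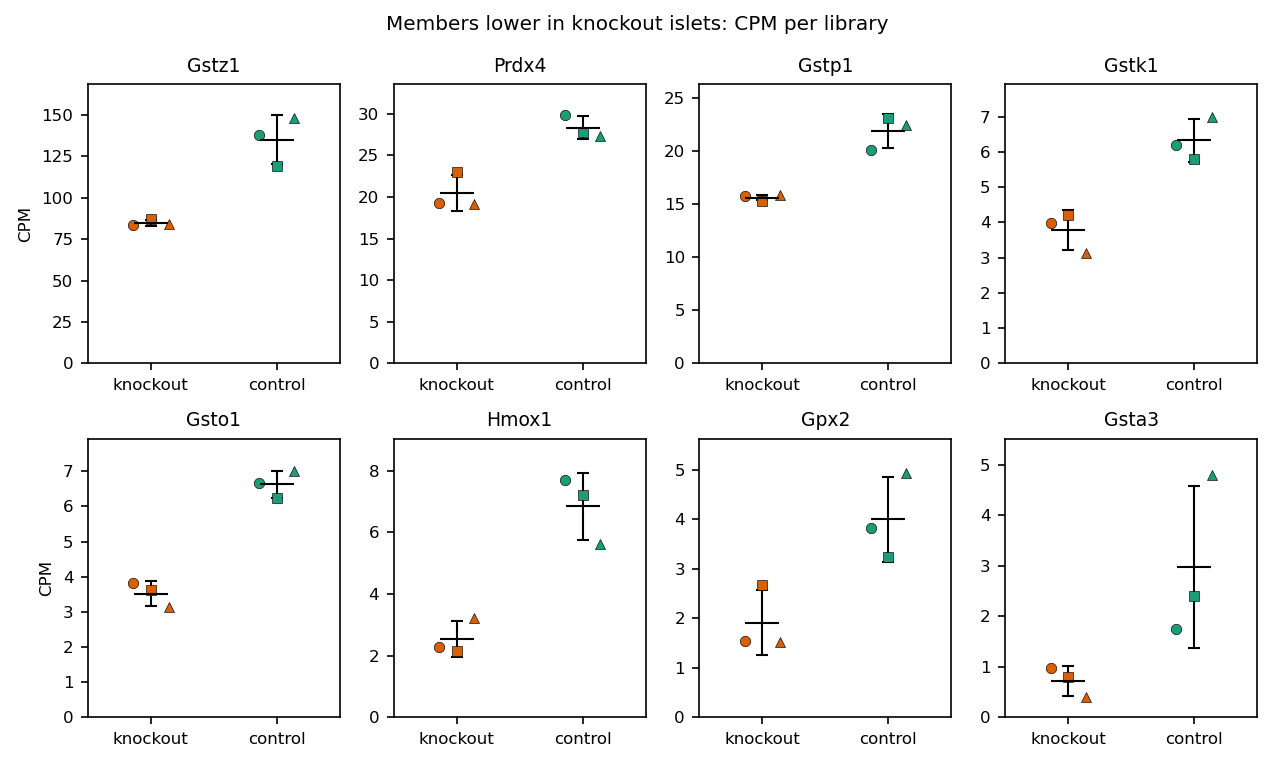
CPM (counts per 1e+06 counts, y axis from 0) of the 8 members that fell, in the 3 knockout and the 3 control libraries (points, in the order 4, 5, 6 and 7, 10, 16; the shapes pair nothing), with the mean as a dash and the SD as a bar. The knockout points lie below the control points in each panel, as for Prdx4 (highest knockout value 23 CPM, lowest control value 27.3 CPM) and Gsta3 (0.983 against 1.76 CPM).

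Of the quinone and haem enzymes, Hmox1 fell, Nqo2 rose and 2 did not pass, which is 50% called, against 24.4% of all genes tested. Hmox1, the inducible heme oxygenase, had 37, 32 and 40 counts in knockout libraries 4, 5 and 6, against 149, 147 and 82 counts in control libraries 7, 10 and 16. It averaged 2.54 ± 0.584 CPM in knockout and 6.84 ± 1.08 CPM in control islets (SD, n = 3 each), a 2.71-fold fall with the control library nearest to the knockouts, library 16, still well above them (log2 fold change -1.44, SE 0.23, adjusted p = 0.00284 by edgeR). Hmox2, the constitutive form, was at 41.8, 50.5 and 40.8 CPM in knockout and 36.1, 38.1 and 37.5 CPM in control libraries. Its groups did not overlap either, but the test was not passed (0.26, SE 0.09, adjusted p = 0.077), and 32.1% of its windows also occur in transcripts of other genes, mostly Cdip1. Nqo2, a quinone reductase that uses dihydronicotinamide riboside, was at 29.3, 27.7 and 24.7 CPM in knockout and 18.9, 22.7 and 19.8 CPM in control libraries (0.42, SE 0.11, adjusted p = 0.0229), with no overlap. The call was lost when knockout library 4, knockout library 5, control library 7 or control library 16 was left out (0.37 to 0.40, adjusted p 0.0621 to 0.0696), and 16.3% of its windows also occur in Serpinb6a transcripts.

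The abundant metallothioneins varied more within the knockout group than between groups, and the scarce Mt3 rose. Mt1 was at 150, 98.2 and 233 CPM in knockout libraries 4, 5 and 6, against 194, 166 and 171 CPM in control libraries 7, 10 and 16. Mt2 was at 109, 76.2 and 185 CPM in knockout and 118, 117 and 116 CPM in control libraries. In both genes knockout library 5 was the lowest of all 6 and knockout library 6 the highest of its group, so the control values lay inside the knockout range for Mt2 and also for Mt1. Neither passed (Mt1 at -0.15, SE 0.32, adjusted p = 0.779; Mt2 at 0.08, SE 0.33, adjusted p = 0.891 by edgeR), and the sign turned for Mt1 without knockout library 5 (0.11) and for Mt2 without knockout library 6 (-0.32). The 8 leukocyte markers had the same order in the knockout group, at 247, 104 and 317 CPM summed, and were at 145, 177 and 88.6 CPM in control libraries 7, 10 and 16; their part in the metallothionein levels was not tested.

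The ratio of Mt1 to Mt2 counts was 1.38, 1.29 and 1.26 in knockout libraries 4, 5 and 6, against 1.65, 1.43 and 1.48 in control libraries 7, 10 and 16. The ratio was chosen after its values were seen, so it is given as a description with no test; its knockout values lay below its control values. Mt3, which is best known from brain, had 33, 39 and 22 counts in knockout and 19, 22 and 16 counts in control libraries. It was at 2.03, 2.61 and 1.77 CPM in knockout, against 0.981, 1.08 and 1.1 CPM in control libraries, with no overlap (2.03-fold, log2 fold change 1.02, SE 0.29, adjusted p = 0.0327). On these few reads the call was lost without any 1 library except knockout library 6 (0.85 to 1.08, adjusted p 0.0573 to 0.113) and with DESeq2 (1.04, adjusted p = 0.0666). Windows shared with Gm45774 were 22.4% for Mt2.

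**Figure D4:**
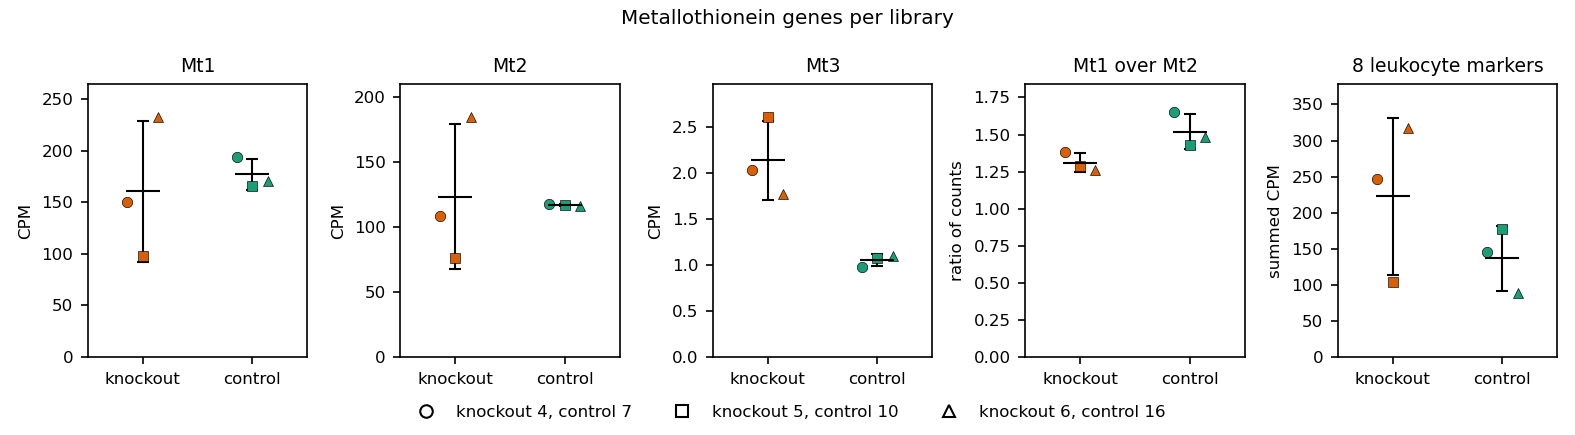
Mt1, Mt2 and Mt3 in CPM (counts per 1e+06 counts), the ratio of Mt1 to Mt2 counts, and the summed CPM of 8 leukocyte markers in each knockout and control library (points, symbols name the library), with the mean as a dash and the SD as a bar. Mt1 runs from 98.2 to 233 CPM within the knockout group alone, while Mt3 runs from 1.77 to 2.61 CPM in knockout against 0.981 to 1.1 CPM in control libraries.

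The promoters of these 3 neighbouring genes on chromosome 8 are shown because Mt1 and Mt2 varied together and Mt3 did not follow them. Each is the 250 bases before the RefSeq start in GRCm38.p6, 5′ to 3′ on the gene's strand. Capitals mark matches (either strand) to TGCNCNC, a looser pattern than the metal response element core TGCRCNC, where R is A or G.
Mt1 (chr8:94178839-94179088, plus strand): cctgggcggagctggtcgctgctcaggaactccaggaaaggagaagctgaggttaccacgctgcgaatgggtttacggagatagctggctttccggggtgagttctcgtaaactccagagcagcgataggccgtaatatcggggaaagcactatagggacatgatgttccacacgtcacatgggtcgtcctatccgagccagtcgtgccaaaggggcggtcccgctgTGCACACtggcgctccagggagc
Mt2 (chr8:94172368-94172617, plus strand): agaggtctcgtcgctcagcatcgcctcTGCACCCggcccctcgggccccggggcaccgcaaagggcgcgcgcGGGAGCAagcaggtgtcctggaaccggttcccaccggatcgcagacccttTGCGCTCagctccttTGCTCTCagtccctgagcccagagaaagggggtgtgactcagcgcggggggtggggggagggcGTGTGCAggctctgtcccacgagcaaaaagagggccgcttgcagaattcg
Mt3 (chr8:94152357-94152606, plus strand): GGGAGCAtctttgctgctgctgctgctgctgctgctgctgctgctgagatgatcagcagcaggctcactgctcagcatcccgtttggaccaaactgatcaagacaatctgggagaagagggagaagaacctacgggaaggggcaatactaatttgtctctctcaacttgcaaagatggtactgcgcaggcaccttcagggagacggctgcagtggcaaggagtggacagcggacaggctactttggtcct
Mt2 had 5 matches, Mt1 had 1 and Mt3 had 1, which for Mt3 lay at the far end of the window. The Mt3 match and some of the Mt2 matches have T where the core has R, so they match only the looser pattern. Bases after the RefSeq start or further upstream were not searched. These counts leave out any elements there and do not rank the 3 genes by their metal response elements. The motif is short: it was found in 44.4% of all 32851 promoter windows of this length. By gene it was present for 30 of the 54 members that have a window (55.6%), and for 47.2% of all genes with one.

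The antioxidant response element core TGACNNNGC, searched on both strands of the same windows, was found in 10.2% of all windows and for 11.5% of all genes. It was found for 8 of 54 members (14.8%), for 1 of the 11 that rose (Prdx1) and for 1 of the 7 fallen members with a window (Gsta3). The promoters of both are shown, with that of Gclm, which has a match and did not pass, with the match in capitals.
Prdx1 (chr4:116685349-116685598, plus strand): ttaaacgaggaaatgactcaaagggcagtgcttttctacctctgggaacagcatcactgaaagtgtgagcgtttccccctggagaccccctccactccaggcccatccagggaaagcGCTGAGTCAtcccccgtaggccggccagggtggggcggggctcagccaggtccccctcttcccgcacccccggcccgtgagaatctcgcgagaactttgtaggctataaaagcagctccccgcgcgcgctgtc
Gsta3 (chr1:21240335-21240584, plus strand): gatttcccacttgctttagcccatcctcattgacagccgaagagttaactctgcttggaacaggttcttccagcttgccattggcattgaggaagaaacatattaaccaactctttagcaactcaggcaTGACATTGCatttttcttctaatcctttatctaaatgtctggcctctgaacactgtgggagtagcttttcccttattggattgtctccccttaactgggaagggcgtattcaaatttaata
Gclm (chr3:122245307-122245556, plus strand): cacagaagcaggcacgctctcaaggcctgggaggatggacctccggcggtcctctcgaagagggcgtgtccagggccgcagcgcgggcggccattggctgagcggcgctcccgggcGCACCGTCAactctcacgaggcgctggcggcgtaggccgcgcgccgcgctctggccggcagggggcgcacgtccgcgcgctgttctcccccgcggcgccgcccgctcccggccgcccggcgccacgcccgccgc
In Prdx1 the match overlaps an AP-1 site (TGANTCA), of which this window holds 2; AP-1 sites were found in 6.75% of all windows.

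Other genes of the same redox pathways, outside the symbol rule, were read from a list of 83 genes, of which 82 were in the files and 76 could be tested. Of these, 16 rose, 9 fell and 51 did not pass, which is 32.9% called, against 24.4% of all genes. In NADPH supply 3 of 8 rose (37.5%) and none fell, against 11.8% higher and 12.6% lower among all genes tested. Me1, the cytosolic malic enzyme, rose 2.21-fold, with 44.2, 44.1 and 45.5 CPM in knockout libraries 4, 5 and 6, against 19.8, 21.6 and 18.9 CPM in control libraries 7, 10 and 16 (log2 fold change 1.15, SE 0.08, adjusted p = 4.29e-05 by edgeR). G6pdx, the entry enzyme of the pentose phosphate pathway, rose to 57.9 ± 4.37 CPM in knockout, against 36.3 ± 4.31 CPM in control islets (SD, n = 3 each; 0.68, SE 0.10, adjusted p = 0.00214), and was at 0.66 (adjusted p = 0.0752) with the acinar covariate described further on. Both supply the electrons that glutathione reductase and thioredoxin reductases pass on.

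Cysteine and glutathione turnover genes moved in both directions, with 2 of 14 higher (14.3%) and 3 lower (21.4%). Among all genes tested 11.8% were higher and 12.6% lower. Cbs, which leads homocysteine towards cysteine, averaged 141 ± 18 CPM in knockout and 72.6 ± 12.9 CPM in control islets (0.95, SE 0.14, adjusted p = 0.00326 by edgeR). Chac1, which degrades glutathione, fell to 6.75 ± 1.24 CPM in knockout, against 32.3 ± 13.2 CPM in control islets (-2.27, SE 0.33, adjusted p = 0.00516). Ggt1, which cleaves glutathione outside the cell, had 2.83 ± 0.855 CPM in knockout and 10.7 ± 3.94 CPM in control islets (-1.94, SE 0.35, adjusted p = 0.00651). With the acinar marker level added as a covariate, Ggt1 was at -0.57 and Chac1 at -1.44, and neither passed (adjusted p = 0.292 and 0.167). Abcc4, an efflux transporter, fell by 0.95 (SE 0.08, adjusted p = 1.32e-04).

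Among genes that make peroxide or superoxide, 2 of 8 tested rose and none fell, which is 25% called, against 24.4% of all genes tested. Of the 6 that did not pass, Xdh and Nox4 had knockout values below all control values. Xdh was at -0.85 (SE 0.27, adjusted p = 0.0637 by edgeR) and Nox4 at -0.67 (SE 0.28, adjusted p = 0.122). Ero1lb, the oxidase that makes peroxide as it forms disulfides in the endoplasmic reticulum of beta cells, was at 6620 ± 1090 CPM in knockout and 2260 ± 130 CPM in control islets (SD, n = 3 each), a log2 difference of 1.55 (SE 0.14, adjusted p = 1.27e-04 by edgeR). It lies upstream of Prdx4 in peroxide handling of that compartment, and Prdx4 fell in the same libraries. Maob, a mitochondrial amine oxidase, averaged 572 ± 115 CPM in knockout and 223 ± 15.8 CPM in control islets (1.36, SE 0.14, adjusted p = 3.75e-04). Among repair and selenium genes, Msra, a methionine sulfoxide reductase, rose by 0.73 (SE 0.12, adjusted p = 0.00365), Oxr1 by 0.53 (SE 0.11, adjusted p = 0.00836) and Sephs2, which makes selenophosphate for selenoproteins such as Gpx1, by 0.42 (SE 0.09, adjusted p = 0.00897). Ftl1, the ferritin light chain that stores the iron that heme oxygenases set free, fell to 195 ± 23 CPM in knockout, against 351 ± 22.1 CPM in control islets (-0.85, SE 0.10, adjusted p = 6.71e-04). The stress sestrin Sesn1 (-0.51, SE 0.10, adjusted p = 0.00827), the microsomal transferase Mgst3 (-0.85, SE 0.18, adjusted p = 0.00924), the small Maf factor Maff (-0.87, SE 0.20, adjusted p = 0.0138) and the selenoprotein Sepw1 (-0.37, SE 0.09, adjusted p = 0.0205) fell as well. Among the other iron genes beside Ftl1, Blvra rose (0.48, SE 0.11, adjusted p = 0.0152 by edgeR). Blvrb (0.42, SE 0.20, adjusted p = 0.162) and Fth1 (-0.26, SE 0.09, adjusted p = 0.0613) did not pass. Of the 10 sensor genes of the list, which include Maff, 1 rose and 2 fell, which is 30% called, against 24.4% of all genes tested. Nfe2l2, which encodes Nrf2, rose by 0.29 (SE 0.07, adjusted p = 0.0218 by edgeR). Mafg, another small Maf factor, fell (-0.23, SE 0.07, adjusted p = 0.0455). Sepw1 missed the threshold without knockout library 5 (-0.33, adjusted p = 0.0672), and Mgst3 with the acinar covariate (-0.66, adjusted p = 0.226). With control 16 as the only control Oxr1, Sephs2, Ggt1, Mgst3 and Maff did not pass.

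Fewer members and fewer genes passed in a fit that includes the acinar level; the cause was not tested. With the mean log2 level of the 23 acinar markers as a covariate, 3 of the 54 tested members passed. They were Gstz1 (-0.77, SE 0.15, adjusted p = 0.0208 by edgeR), Gstm1 (0.80, SE 0.20, adjusted p = 0.0496) and Gsta3 (-3.3, SE 0.59, adjusted p = 0.0167). In that fit 8% of all genes tested passed (4.6% higher and 3.41% lower), so the members were not called more often than all genes. The other 16 called members did not pass (adjusted p up to 0.334 for Prdx4), all 19 kept their sign, and the log2 fold changes were 0.565 to 1.67 times those without the covariate (median 1.06). Standard errors were larger, as for Gpx1 (0.73, SE 0.23, against 0.70, SE 0.12, without the covariate). For Hmox1 it was -1.03 (SE 0.40), for Prdx4 -0.28 (SE 0.17), for Prdx2 0.26 (SE 0.12) and for Txn2 0.21 (SE 0.11). Control library 16 has an acinar share inside the knockout range. With it as the only control, all 19 kept their sign and lay within 0.775 to 1.35 times their value with all libraries, and the same 3 genes passed, where 6.29% of all genes did (3.13% higher and 3.16% lower); the spread of the lone control library was taken to be that of the knockout group.

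**Figure D5:**
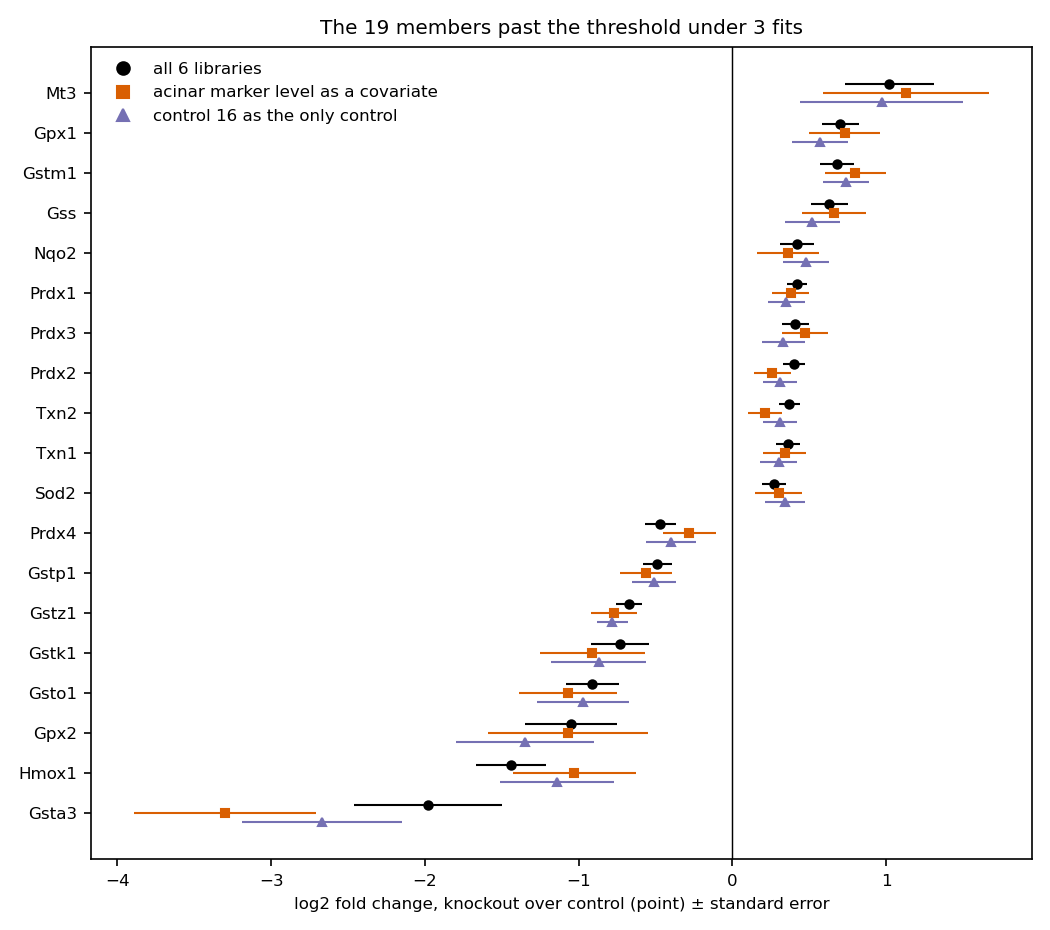
Log2 fold change of knockout over control (points) with the standard error (bars) of the 19 members past the threshold, with all 6 libraries, with the acinar marker level added as covariate, and with control 16 as the only control. The points stay on their side of 0 in all 3 fits, and the bars are wider in the 2 added fits; Gsta3 reaches -3.3 with the covariate.

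In the deposited comparison, the authors' deposited table, adjusted p was under 0.05 with a higher level for 9 members and a lower level for 6, and all 15 are among the 19 called here. They are 24.6% of the 61 members with an adjusted p in the authors' deposited table, where 12.8% of 19440 genes passed, 6.66% higher and 6.19% lower; those genes include ones with low counts that the filter here leaves out. Gsta3, Gstk1, Mt3 and Sod2 did not pass in the authors' deposited table (adjusted p = 0.103, 0.085, 0.155 and 0.0773).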

How the data were processed

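Islets of 6 mice or pools (3 knockout, 3 control libraries) were profiled by bulk RNA-seq with TruSeq cDNA libraries, per the labels' protocols. The deposited tables of the authors hold raw counts, in whole numbers, for each gene. Per the submitters' processing notes, build mm9 was used with TopHat2 2.1.0, DESeq, Cufflinks 2.0.2 and bcl2fastq 1.8.4. The sources used here do not give the read counter, annotation or strand setting, so antisense and overlapping genes cannot be told apart. The authors' deposited table gives p-values, log2 fold changes, the fold as a ratio, and group means of scaled counts (signal).

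Counts were tested in R 4.3.3 with edgeR 4.0.16: filterByExpr (minimum count 10, minimum total 15; 14770 of 23284 genes kept), TMM factors (0.988 to 1.021), robust quasi-likelihood F test, Benjamini-Hochberg adjustment over all genes tested and a threshold of 0.05. The biological coefficient of variation was 14.2%. CPM uses the TMM-scaled totals. limma 3.58.1 and DESeq2 1.42.0 served as alternatives, and the tests were checked on simulated counts. Libraries were grouped by title. Members and lists were chosen with earlier results of these data known. Named were Neurod1, members past the threshold, the most abundant tested member by count of each class, and up to 8 companion genes per direction by smallest p. Gstt2, Gstt4, Mt2, Gclc, Gclm, Gpx4, Srxn1, Prdx5, Ins1 and Ins2 were chosen after their values were seen. So were the companion genes Txnip, Nfe2l2, Mafg, Xdh, Nox4, Blvra, Blvrb and Fth1, which are given for the main edgeR fit only. Promoters are from RefSeq (GRCm38.p6; 54 of 63 members matched); windows of 100 bases were compared among GENCODE M21 transcripts. Coordinates of the files were not used, since they use mm9.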

Additional observations from a re-analysis of the deposited data

How the results depend on the processing

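Of 524 values of the named members under 15 alternatives, 439 kept direction and side of the threshold, and 60 were lost calls. Another 14 were gained calls and 11 turned sign, all in genes that had not passed. Of 240 values of the companion genes named by smallest p, 10 were lost calls and none turned. A pair of settings moved most counts, the cause of which was not tested. With the acinar covariate 679 genes were higher and 503 lower (1736 and 1864 without it), 1 member was higher and 2 lower, and 9 companion genes were higher. With control 16 as the only control, chosen after seeing the data, 480 genes were higher and 485 lower, 1 member was higher and 2 lower, and 7 companion genes were higher and 5 lower; fewer libraries enter that fit. Leaving out 1 library gave 1153 to 1590 genes higher and 1225 to 1433 lower (lowest without control library 10), 8 to 12 members higher (lowest without knockout library 4 or control library 7) and 5 to 7 lower (lowest without knockout library 6 or control library 16), and 10 to 15 companion genes higher and 8 to 10 lower. The members' median log2 fold change was -0.026 to 0.066 in those fits. Signs turned for Gpx3 (-0.045 with the acinar covariate, -0.023 with control 16 alone), Sod1 (-0.10 and -0.0031 in the same fits), Gstt4 (-0.23 with the covariate), Gclc (-0.0016 with the covariate, -0.0046 with upper-quartile factors), Gclm (0.058 with the covariate), Mt2 (-0.016 with limma-voom) and, on leaving out 1 library, Mt2 (-0.32 to 0.33) and Mt1 (-0.50 to 0.11). Gstz1 and Gstm1 passed under all 15. No alternative moved the median of all genes by more than 0.034, the shift without the filter. Upper-quartile factors moved it by -0.03 and library totals only by 0.0014. Few reads limit Gpx2, Gsta3 and Mt3. No paired analysis was possible because the groups share no replicate number.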
